A study of Homo sapiens with 10 samples.

Results

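The proteasome subunit genes were taken as the genes whose symbol is PSM, a letter from A to G and a number. This rule, which used no measured value, found 48 genes among the 64940 genes of a table of TPM, the RNA-seq level of a gene scaled for its length and for the library, from RNA sequencing of cells that were derived from H9, a line of hESCs. A further 19 entries with the symbols of 7 of these genes are copies on alternate sequences of the genome, all of them were listed at 0 in every library, and only the entry on the primary chromosome was used for each gene. The table has 2 control libraries, titled Normal, and 2 oeDAZL libraries. The control cells are wt by genotype and their labels call them SD cells after spontaneous differentiation, whereas the series' design text calls the same group WT PGCLCs. The oeDAZL cells are labelled hPGCLCs with oeDAZL as genotype and treatment, meaning that they overexpress DAZL, an RNA-binding protein of germ cells. In the study's methods, hPGCLCs were made from hESCs with BMP4 and BMP8a, and cells for overexpression received lentivirus shortly after the start of BMP treatment. All libraries come from 1 hESC line, and nothing says that replicates are separate differentiations, so p-values measure the spread between these libraries, which may be technical. Because the labels of the groups differ in culture as well as in DAZL, an effect of DAZL and one of the culture cannot be told apart. The labels of the control cells name neither BMPs nor a control virus, whereas the study's text calls the RNA-seq controls hPGCLCs too and its methods describe a GFP control virus for the miRNA libraries. The comparison asks how proteasome genes differ between oeDAZL and control cells.

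The proteasome is the protease that degrades proteins tagged with ubiquitin. Its core particle is a barrel of outer alpha rings and inner beta rings with the cutting sites inside, and its regulatory particle, made of a base with ATPases and a lid, binds, unfolds and deubiquitinates substrates. Immune signals replace the catalytic beta subunits by immunoproteasome subunits, other activators can cap the core in place of the regulatory particle, and dedicated chaperones assemble both particles. Because the subunits work in fixed ratios in the complex, cells usually regulate their genes together.

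DAZL was listed at 0 TPM in control replicate 1, 0.0333 in control replicate 2, 101.7 in oeDAZL replicate 1 and 100.7 in oeDAZL replicate 2, which fits the labels. It was higher in oeDAZL by 6.65 on the log2(TPM + 1) scale (SE 0.11, limma adjusted p = 1.76e-05). The germ cell markers were mostly low for cells of the labelled type. NANOS3 lay between 0.732 and 1.66 TPM, SOX17 between 2.52 and 3.35, PRDM1 between 1.47 and 2.32, DPPA3 between 0.716 and 2.17 and KIT between 6.23 and 7.7, while TFAP2C, which amnion and trophoblast also use, lay between 44.3 and 53.9. NANOS3, PRDM1 and KIT lay below control in both oeDAZL libraries (limma adjusted p = 0.386, 0.535 and 0.578), as did 38.4% of all tested genes. For SOX17, TFAP2C and DPPA3 the groups overlapped. POU5F1, a pluripotency factor that germ cells keep, was at 13.6 and 10.6 TPM in control and 22.4 and 20.4 TPM in oeDAZL. Its difference was 0.79 (SE 0.14, limma adjusted p = 0.0896), whereas NANOG stayed under 1 TPM in all 4 libraries. SOX2, also a pluripotency factor, was at 5.16 and 2.57 TPM in control and at 2.16 and 2.04 TPM in oeDAZL. The difference of SOX2 was -0.6 (SE 0.29, limma adjusted p = 0.3). The keratin KRT7, at 566.9 to 675.4 TPM (0.14, SE 0.07, limma adjusted p = 0.302), was far more abundant. Of the other amnion and trophoblast genes, ISL1 was lower in oeDAZL (-0.49, SE 0.17, limma adjusted p = 0.192). It was at 80.5 and 55.2 TPM in control and at 45.4 and 48.7 TPM in oeDAZL. GATA3 (-0.05, SE 0.06) and TFAP2A (0.01, SE 0.08) differed by less than their standard errors. Of the mesoderm and mesenchyme genes, HAND1 was higher in oeDAZL, at 958.3 and 1042.2 TPM in control and 1250.0 and 1247.5 TPM in oeDAZL (0.32, SE 0.06, limma adjusted p = 0.0918). The collagen COL3A1 was lower, at 582.9 and 478.8 TPM in control and at 223.9 and 220.4 TPM in oeDAZL (-1.25, SE 0.09, limma adjusted p = 0.0344). TBXT was lower as well (-0.97, SE 0.3, limma adjusted p = 0.173). It was at 2.49 and 1.25 TPM in control and at 0.319 and 0.546 TPM in oeDAZL. MESP1 stayed under 1 TPM in all 4 libraries and lay below control in both oeDAZL libraries. The part of differing cell mixtures in the results was not tested, and in bulk RNA fewer cells of a type and less RNA per cell cannot be told apart. On the first principal component, which held 55.5% of the variance, control replicate 1 (-30.1) stood farther from control replicate 2 (-7.97) than the oeDAZL replicates from each other (22.4 and 15.7), and mitochondrial genes took 12.54% and 13.34% of TPM in control and 14.11% and 13.85% in oeDAZL, above both control libraries. Without mitochondrial genes, the median difference of the tested members was 0.06, against 0.04 with them.

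The constitutive proteasome was abundantly transcribed in both groups and its genes differed little between them. Of the 48 genes, 43 had a mean of at least 1 TPM and were tested, with means between 12.9 and 327.2 TPM (median 138.3). By limma, 3 of these 43 were higher in oeDAZL at an unadjusted P of at most 0.05 (6.98%), against 5.02% of all 16687 tested genes, and 0 were lower, against 15.2% of all tested genes. The 3 were PSMB3, PSMC4 and PSMD12, 1 subunit each of the core, the base and the lid. By adjusted p-value 0 of 43 passed, the smallest adjusted p being 0.178, against 0.0599% of all tested genes, and 0 had a fold change of at least 2 with P at most 0.05, against 0.689%. The share that was higher in oeDAZL was thus near the background.

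By sign, 28 of the 43 were higher in oeDAZL and 15 lower (65.1% higher), whereas 34.7% of all tested genes were higher. Their median difference was 0.04 on the log2(TPM + 1) scale and the median of all tested genes was -0.08. For 15 of the 43 (34.9%) the lower oeDAZL value exceeded the higher control value, against 16.0% of all tested genes, and for 3 the reverse held, against 38.4%. The 3 below were PSMB2, PSMD4 and PSME1. Differences ran from -0.18 for PSME1 to 0.27 for PSMG1, with standard errors between 0.05 and 0.19 and all 95% confidence intervals between -0.44 and 0.69. For each tested gene, the interval on this scale thus left out a 2-fold change in either direction. How far all genes lay below 0 depended on the scaling, and so did these counts. With median-of-ratios scaling 40 of 43 were higher by sign, against 49.5% of all genes. At P of at most 0.05, 13 were higher with that scaling, against 9.95% of all genes. With quantile normalization 32 of 43 were higher by sign, against 51.2%, and 6 at P of at most 0.05, against 8.4%. Without control replicate 1, only 21 of 43 were higher by sign, against 37.6% of all genes.

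**Figure D1:**
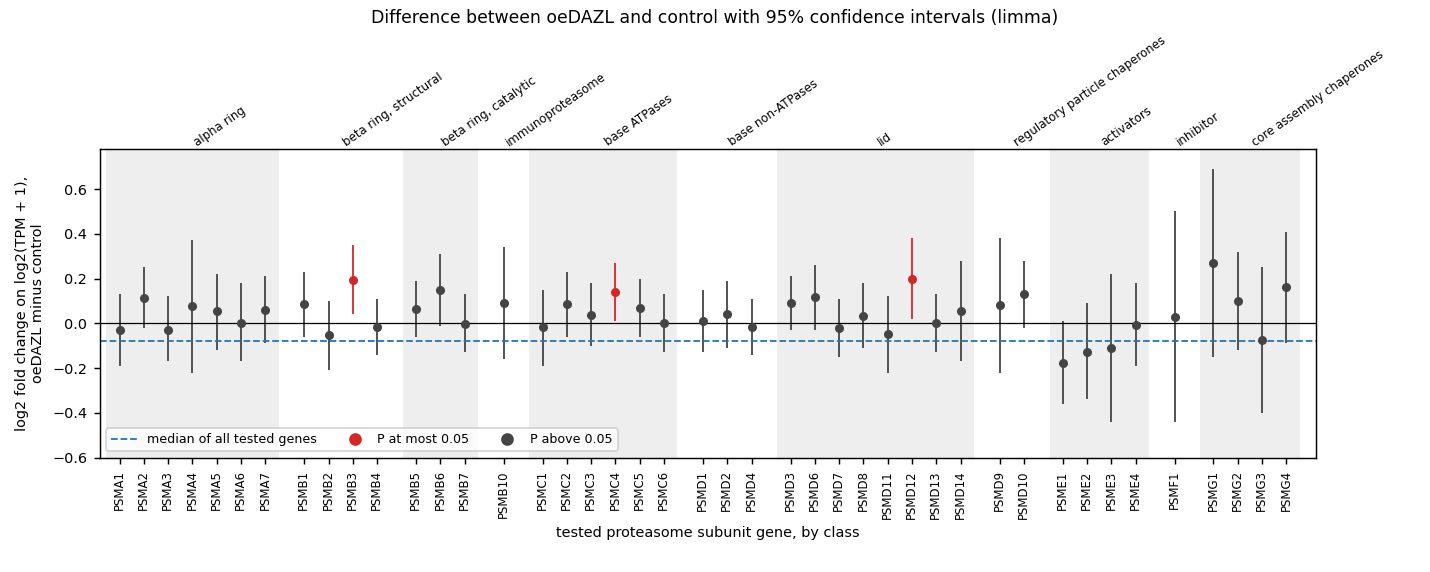
Difference between oeDAZL and control on the log2(TPM + 1) scale for each of the 43 tested proteasome subunit genes, grouped by class, with points for the limma estimate and bars for 95% confidence intervals (n = 2 libraries per group). The 3 genes with P at most 0.05 (red) are PSMB3, PSMC4 and PSMD12, the activators are the only class with no estimate above 0 (PSME4 is at 0.08 with median-of-ratios scaling and at 0.04 with quantile normalization), and the dashed line marks the median of all tested genes at -0.08.

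PSMB3, a structural subunit of the beta ring on chromosome 17 (chr17:38752741-38764225 on GRCh38 in GENCODE, as for the genes that follow, plus strand), was at 99.1 and 106.6 TPM in control and 119.4 and 116.3 TPM in oeDAZL. The groups did not overlap, and the difference was 0.20 on the log2(TPM + 1) scale (SE 0.06, 95% interval 0.04 to 0.35, limma adjusted p = 0.178), or 14.5%. PSMD12, a structural subunit of the lid (chr17:67337916-67366605, minus strand), was at 47.5 and 51.7 TPM in control and 58.4 and 55.5 TPM in oeDAZL. Its difference was 0.20 (SE 0.07, 95% interval 0.02 to 0.38, limma adjusted p = 0.22), again without overlap. PSMC4, an ATPase of the base (chr19:39971165-39981764, plus strand), was at 114.1 and 115.2 TPM in control and 124.5 and 128.2 TPM in oeDAZL, a difference of 0.14 (SE 0.05, 95% interval 0.01 to 0.27, limma adjusted p = 0.234). These calls rested on few libraries. Without oeDAZL replicate 1 none of the 3 passed P at most 0.05, with limma adjusted p-values of 0.641 for PSMB3, 0.704 for PSMD12 and 0.65 for PSMC4. None passed without oeDAZL replicate 2 either, with limma adjusted p-values of 0.439, 0.453 and 0.654. Without control replicate 1, PSMD12 (limma adjusted p = 0.428) and PSMC4 (limma adjusted p = 0.356) also missed the threshold, whereas without control replicate 2 all 3 passed it. Estimates stayed above 0 throughout, between 0.14 and 0.28 for PSMB3 and PSMD12 and between 0.12 and 0.22 for PSMC4 over 14 settings.

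The start regions of these 3 genes are shown because each holds the letters TGACNNNGC, the core of the element that NFE2L1, the activator of proteasome genes, is known to bind. The windows run from 250 bases before to 50 bases after the RefSeq start on GRCh38.p14, are written 5′ to 3′ in the direction of the gene, and have the match in capitals. The window of PSMB3 is chr17:38752491-38752790 (plus strand), that of PSMD12 chr17:67366528-67366827 (minus strand) and that of PSMC4 chr19:39970915-39971214 (plus strand).
PSMB3: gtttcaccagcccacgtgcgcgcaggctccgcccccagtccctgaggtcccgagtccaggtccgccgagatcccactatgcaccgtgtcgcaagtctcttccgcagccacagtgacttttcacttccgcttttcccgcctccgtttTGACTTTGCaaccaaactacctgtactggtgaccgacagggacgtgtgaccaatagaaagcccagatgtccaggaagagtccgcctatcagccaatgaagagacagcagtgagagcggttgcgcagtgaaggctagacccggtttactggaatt
PSMD12: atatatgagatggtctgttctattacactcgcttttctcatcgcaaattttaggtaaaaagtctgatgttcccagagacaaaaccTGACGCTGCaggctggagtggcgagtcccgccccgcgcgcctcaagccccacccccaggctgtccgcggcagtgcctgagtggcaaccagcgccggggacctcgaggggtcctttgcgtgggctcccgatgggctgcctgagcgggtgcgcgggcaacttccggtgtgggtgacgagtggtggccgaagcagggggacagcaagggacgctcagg
PSMC4: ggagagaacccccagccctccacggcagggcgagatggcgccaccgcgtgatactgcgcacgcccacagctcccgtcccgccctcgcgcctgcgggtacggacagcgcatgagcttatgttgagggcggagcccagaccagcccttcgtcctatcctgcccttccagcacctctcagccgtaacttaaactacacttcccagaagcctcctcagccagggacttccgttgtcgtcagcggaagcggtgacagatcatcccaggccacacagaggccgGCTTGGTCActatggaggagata
The match lies at -104 to -96 from the start in PSMB3 and at -165 to -157 in PSMD12. In PSMC4 it lies at 28 to 36, downstream of the start and on the opposite strand, so that the printed letters are the reverse complement. RefSeq windows were found for 42 of the 48 genes (51 windows, since some genes have several starts). On both strands, 15 of the 51 held TGACNNNGC (29.4%), against 13.3% of all 35116 windows. The motifs TGACTCAGC, a narrower form of TGACNNNGC, and TGAGTCANGC were in 0 of 51 (0.561% and 0.285% of all windows). TGACNNNGC was also in genes that were not called, such as PSMA4, PSMC5, PSMD3 and PSME1. CCGGAAGT, the core bound by ETS factors, was in 10 of 51 (19.6% against 4.14%), and GGAAGTGA, which shares letters with it, in 7 (13.7% against 3.48%). CCAAT was in 20 (39.2% against 34.6%), GATTGGC, which contains the complement of CCAAT, in 3 (5.88% against 6.55%), TATAAA in 5 (9.8% against 11.5%), and TGACGTCA, the cAMP response element, in 0 (1.85% of all windows). Such a match describes letters in a window and not a bound site.

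The alpha ring forms the gate through which substrates enter the core. Its 7 genes had a median difference of 0.05 between oeDAZL and control (range -0.03 to 0.12) and 0 passed P at most 0.05. PSMA2 was the largest, at 131.2 and 135.5 TPM in control and 146.1 and 142.9 in oeDAZL (0.12, SE 0.05, limma adjusted p = 0.297). PSMA5, at 37.0 and 38.1 against 38.6 and 39.4 TPM, was the only other alpha gene whose groups did not overlap, and its difference of 0.05 was within its error (SE 0.07). PSMA4 varied most between replicates, at 169.0 and 177.3 TPM in control and 160.0 and 208.8 in oeDAZL. Its difference passed P at most 0.05 without oeDAZL replicate 1 (0.27, limma adjusted p = 0.455), and those of PSMA2 (0.14, limma adjusted p = 0.172) and PSMA7 (0.13, limma adjusted p = 0.155) did so without control replicate 2. The level differed far more between alpha genes than between groups. PSMA7 averaged 327.2 TPM over the 4 libraries, followed by PSMA6 (214.2), PSMA1 (186.4), PSMA4 (178.8), PSMA3 (172.6), PSMA2 (138.9) and PSMA5 (38.3). Of neighbours in this order, PSMA1 and PSMA4 overlapped in their ranges over the libraries, as did PSMA4 and PSMA3, and the other pairs did not. The ratio of PSMA7 to PSMA5 was 8.24 and 8.83 in control and 8.76 and 8.36 in oeDAZL, so the order at its ends was held in every library although the protein complex contains these subunits in equal number. PSMA8, which takes the place of PSMA7 in the testis proteasome, was listed at 0 in all 4 libraries.

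Of the structural beta genes, PSMB4 was the most abundant, at 323.1 TPM over the 4 libraries, and did not differ between groups beyond its error (-0.02, SE 0.05). PSMB1 followed at 298.2 TPM, PSMB3 at 110.4 and PSMB2 at 58.2, and no neighbours in this order overlapped. PSMB1 was at 301.3 and 277.7 TPM in control and 308.5 and 305.5 in oeDAZL (0.09, SE 0.06, limma adjusted p = 0.454). Without control replicate 1 it passed P at most 0.05 (0.14, limma adjusted p = 0.273). PSMB2 lay lower in both oeDAZL libraries (56.2 and 58.0 TPM) than in both control libraries (58.6 and 59.9 TPM), a difference of -0.05 with a standard error of 0.06.

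The catalytic subunits carry the cutting sites, PSMB5 the chymotrypsin-like, PSMB6 the caspase-like and PSMB7 the trypsin-like activity. PSMB5 was at 153.4 and 153.4 TPM in control and at 158.9 and 162.2 TPM in oeDAZL (0.06, SE 0.05, limma adjusted p = 0.517). PSMB6 was at 205.4 and 228.2 TPM in control and at 237.2 and 243.1 TPM in oeDAZL (0.15, SE 0.07, 95% interval -0.01 to 0.31, limma adjusted p = 0.277). The oeDAZL libraries thus lay higher for both genes, but neither difference passed the threshold. Both calls depended on the scaling, and that of PSMB6 also on the library. PSMB5 passed P at most 0.05 with median-of-ratios scaling (0.15, limma adjusted p = 0.221). PSMB6 passed P at most 0.05 without control replicate 2 (limma adjusted p = 0.0719), with median-of-ratios scaling (limma adjusted p = 0.201) and with quantile normalization (limma adjusted p = 0.283). PSMB7 was at 253.3 and 266.1 TPM in control and at 256.0 and 262.3 TPM in oeDAZL, and its groups overlapped (95% interval -0.13 to 0.13).

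The immunoproteasome was at or near 0 except for PSMB10. PSMB8, the interferon-inducible counterpart of PSMB5 (chr6:32840717-32844679, minus strand), was at 0.0295 and 0.0284 TPM in oeDAZL and listed at 0 in control replicates 1 and 2. PSMB9, the counterpart of PSMB6 (chr6:32844136-32859851, plus strand), was at 0.0634 TPM in oeDAZL replicate 1 and listed at 0 in the other libraries. No fold is given for either, because the control libraries were listed at 0 and TPM keeps no depth. PSMB10, the counterpart of PSMB7 (chr16:67934506-67936864, minus strand), was at 12.2 and 12.7 TPM in control and 13.8 and 12.8 TPM in oeDAZL. Its difference was 0.09 (SE 0.10, 95% interval -0.16 to 0.34, limma adjusted p = 0.66). A gene model on the same strand, AC040162.1 (1.17 TPM), covers 39.4% of its exon bases. PSMB11, the catalytic subunit of the thymus proteasome, was listed at 0 in all 4 libraries.

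In summed TPM, the 3 immunoproteasome genes made up 1.99% and 1.96% of the 3 constitutive catalytic genes in control and 2.14% and 1.92% in oeDAZL. The oeDAZL libraries lay on either side of the control libraries (exact permutation test, two-sided p = 1.0, where 2 against 2 libraries cannot give less than 0.333). PSMB10 alone was 4.81% and 4.78% of PSMB7 in control and 5.41% and 4.88% in oeDAZL (exact permutation p = 0.333). PSMB8 and PSMB9 each have 7 copies on alternate sequences of the genome, which were also listed at 0. The study kept only uniquely mapped reads, and what that did to these genes was not tested. Of other genes of chromosome 6, TAP1, which overlaps PSMB9, lay between 0.0269 and 0.349 TPM, PSMB8-AS1 was listed at 0, TAP2 lay between 0.921 and 1.32 TPM and the more distant HLA-C between 85.9 and 94.7 TPM. The defining blood marker PTPRC was at 0.0617 and 0.0464 TPM in control and at 0 in both oeDAZL libraries, and CD14 and HLA-DRA lay between 0 and 0.216 TPM. CD74, an antigen presentation gene of the same marker list, was at 17.1 and 13.1 TPM in control and 8.28 and 8.16 TPM in oeDAZL.

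**Figure D2:**
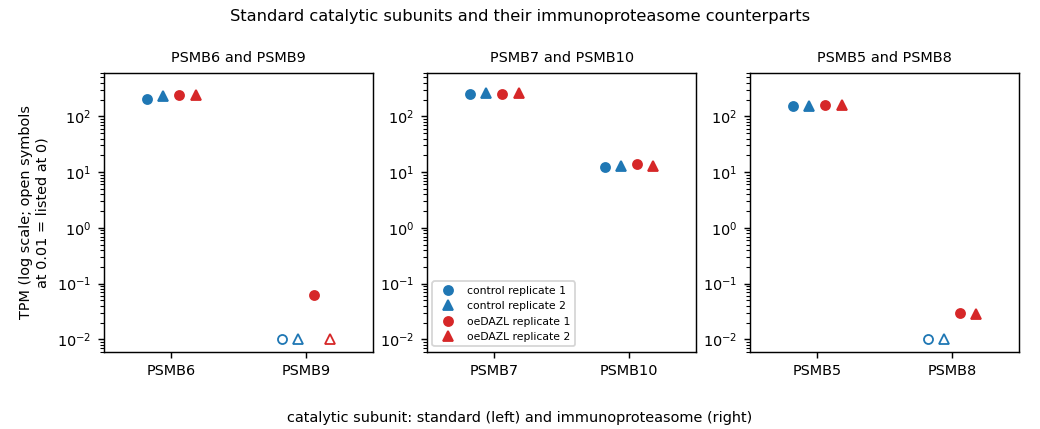
TPM on a log axis of each constitutive catalytic subunit (left in each panel) and its immunoproteasome counterpart (right) in the control (blue) and oeDAZL (red) libraries, with circles for replicate 1, triangles for replicate 2 and open symbols for values listed at 0. PSMB10 lies between 12.2 and 13.8 TPM below PSMB7 at 253.3 to 266.1 TPM, while PSMB8 and PSMB9 do not exceed 0.0634 TPM.

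The start regions of PSMB10 and PSMB8 are shown because both hold the letters GAAANNGAAA, a core of the interferon-stimulated response element, while their levels lay far apart. The windows are of the same kind as above, chr16:67936801-67937100 (minus strand) for PSMB10 and chr6:32843998-32844297 (minus strand) for PSMB8. Another window of PSMB8, for a different start, holds no such match.
PSMB10: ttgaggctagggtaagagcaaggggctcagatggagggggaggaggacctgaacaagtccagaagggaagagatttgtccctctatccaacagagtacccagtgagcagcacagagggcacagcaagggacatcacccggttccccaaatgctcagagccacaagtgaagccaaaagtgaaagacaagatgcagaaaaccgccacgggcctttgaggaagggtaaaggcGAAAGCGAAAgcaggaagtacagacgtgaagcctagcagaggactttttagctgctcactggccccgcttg
PSMB8: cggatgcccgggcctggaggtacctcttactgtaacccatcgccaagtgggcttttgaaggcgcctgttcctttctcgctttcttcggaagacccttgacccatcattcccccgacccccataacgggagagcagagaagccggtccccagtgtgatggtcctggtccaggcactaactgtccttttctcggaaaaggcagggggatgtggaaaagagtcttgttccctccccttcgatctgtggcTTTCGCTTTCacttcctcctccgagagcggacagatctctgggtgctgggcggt
The match lies at -21 to -12 in PSMB10 and, on the opposite strand and thus printed as its reverse complement, at -4 to 6 in PSMB8. These letters were in 7 of the 51 windows (13.7%), against 3.57% of all windows. The other 5 belong to PSMA4, PSMB4, PSME1, PSME2 and PSMG4, which were all measured above 10 TPM.

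In the base, the 6 ATPases unfold substrates and thread them into the core. Their median difference was 0.05 (range -0.02 to 0.14), and PSMC4, described above, was the 1 that passed P at most 0.05. The groups also stood apart, with oeDAZL higher, for PSMC2 (69.1 and 69.5 against 74.4 and 72.7 TPM) and for PSMC5 (212.0 and 201.6 against 213.9 and 220.0 TPM). These differences, 0.08 and 0.07 with standard errors of 0.06, missed the threshold (limma adjusted p = 0.463 and 0.514). PSMC6 was the steadiest of the 6, between 99.6 and 100.8 TPM in all 4 libraries. From PSMC5 (211.9 TPM) the order ran over PSMC3 (180.6), PSMC4 (120.5), PSMC6 (100.2) and PSMC2 (71.4) to PSMC1 (57.6), and no neighbours overlapped. PSMC1 shares 76.1% of its exon bases with NRDE2 on the opposite strand, which averaged 6.52 TPM. Whether the libraries were stranded is not given in the sources used here, so reads of these genes may not be separated. The same holds for PSMD7, which shares 31.2% with the lncRNA gene AC009120.2 (8.64 TPM), and PSMC5, which shares 15.3% with FTSJ3 (73.9 TPM). PSMG4 likewise shares 13.3% with SLC22A23 (29.1 TPM) and 1.7% with TUBB2B, which was far more abundant (411.3 TPM). PSME3 shares 5.8% with BECN1 (67.7 TPM) in the same way.

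The base also holds the scaffold subunits PSMD1 and PSMD2 and the ubiquitin receptor PSMD4. PSMD2 averaged 279.3 TPM, PSMD4 212.9 and PSMD1 142.7. Their differences were 0.04, -0.02 and 0.01, none beyond its standard error of 0.05 to 0.06. ADRM1, another ubiquitin receptor of the base without a PSM symbol, was at 123.7 and 136.4 TPM in control and 142.5 and 143.2 TPM in oeDAZL (0.14, SE 0.07, limma adjusted p = 0.305).

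The lid removes ubiquitin from substrates through PSMD14, its deubiquitinase. Its 8 genes had a median difference of 0.04 (range -0.05 to 0.20), 6 of them higher by sign, and PSMD12 was the 1 that passed P at most 0.05. PSMD14 itself was at 121.4 and 135.8 TPM in control and 143.5 and 124.2 TPM in oeDAZL, so its groups overlapped (0.06, SE 0.09). PSMD7, which pairs with PSMD14, was at 138.1 and 140.5 TPM in control and 139.0 and 135.5 TPM in oeDAZL. PSMD3 (203.9 and 206.5 against 218.0 and 219.1 TPM) and PSMD6 (135.5 and 132.0 against 140.6 and 149.9 TPM) lay above control in both oeDAZL libraries. Their differences of 0.09 and 0.12 missed the threshold (limma adjusted p = 0.359 and 0.322). PSMD13 varied least, between 147.7 and 149.6 TPM. PSMD3 was the most abundant lid gene (211.9 TPM) and PSMD12, with 53.3 TPM, the least. In between, PSMD8, PSMD13, PSMD6, PSMD7 and PSMD14, from 152.7 down to 131.2 TPM, each overlapped with the next, and PSMD11 (99.7 TPM) stood apart from both its neighbours. SEM1, a small lid subunit with another kind of symbol, lay between 54.6 and 56.4 TPM in both groups.

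The activators PSME1 and PSME2, which together cap the core and, like the immunoproteasome, are induced by interferon, and PSME3 and PSME4, which cap it in the nucleus, all had estimates below 0, although PSME4, at -0.01, was above 0 after median-of-ratios scaling (0.08), with quantile normalization (0.04), without mitochondrial genes (0.01) and without control replicate 2 (0.05) or oeDAZL replicate 2 (0.03). The 4 had a median difference of -0.12, and 0 of 4 passed P at most 0.05. For all tested genes the median was -0.08, and 34.7% were higher by sign. With median-of-ratios scaling the medians were -0.04 for the 4 and 0.00 for all tested genes. PSME1 was at 110.9 and 99.2 TPM in control and 95.4 and 90.0 TPM in oeDAZL. The groups did not overlap, and the difference of -0.18 (SE 0.08, 95% interval -0.36 to 0.01, limma adjusted p = 0.258) missed the threshold. PSME2 was at 84.6 and 73.2 TPM in control and 74.9 and 69.3 TPM in oeDAZL (-0.13, SE 0.09, limma adjusted p = 0.463). PSME3 was at 276.1 and 203.5 TPM in control and 219.1 and 219.6 TPM in oeDAZL (-0.11, SE 0.13, limma adjusted p = 0.676). For all 3, control replicate 1 was the highest library. Without control replicate 2 the differences were -0.26, -0.23 and -0.33, and all 3 passed P at most 0.05 (limma adjusted p = 0.0897, 0.134 and 0.0429). Without control replicate 1, that of PSME3 was 0.11 and that of PSME2 -0.02. PSME4 was at 44.8 and 48.5 TPM in control and 47.5 and 45.4 TPM in oeDAZL. With median-of-ratios scaling PSME1, PSME2 and PSME3 were at -0.09, -0.04 and -0.03. The summed TPM of PSME1 and PSME2, per gene, was 52.5% and 44.9% of that of the core genes in control and 44.3% and 40.1% in oeDAZL (exact permutation p = 0.333).

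Of the chaperones of the regulatory particle, PSMD10 was at 66.7 and 66.4 TPM in control and 75.0 and 71.1 TPM in oeDAZL (0.13, SE 0.06, limma adjusted p = 0.299), and PSMD9 at 26.5 and 28.0 against 25.6 and 32.6 TPM (0.08, SE 0.12). PSMD5, which belongs to the same group of chaperones, was listed at 0.0725 and 0 TPM in control and at 0.186 and 0.508 TPM in oeDAZL, and was not tested. It stood apart from the other chaperones by its level, and both oeDAZL libraries were above control, but the values were all near 0. Of the chaperones that assemble the core, PSMG1 was at 25.0 and 36.8 TPM in control and 35.4 and 38.3 TPM in oeDAZL. Its difference of 0.27 (SE 0.17, limma adjusted p = 0.424) was the largest of all tested members and rested on control replicate 1, since it was 0.54 (limma adjusted p = 0.0507) without control replicate 2 and 0.00 without control replicate 1. PSMG2, the partner of PSMG1, was lowest in the same library, at 68.0 TPM against 80.5, 81.0 and 77.7 in the others (0.10, SE 0.09), and it passed P at most 0.05 without control replicate 2 (0.22, limma adjusted p = 0.111). PSMG3 was at 24.2 and 18.7 against 20.9 and 19.5 TPM, and PSMG4, its partner, at 13.2 and 12.2 against 14.5 and 14.1 TPM, the only pair of groups among the 4 that did not overlap (0.16, SE 0.10, limma adjusted p = 0.419). POMP, which matures the beta ring and has another kind of symbol, was at 78.2 and 81.4 against 87.9 and 85.5 TPM (0.12, SE 0.06, limma adjusted p = 0.325). PSMF1, an inhibitor of the core, was at 34.4 and 27.0 against 37.6 and 25.7 TPM and varied more within the groups than between them.

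Summed over the 48 genes, the proteasome took 5768.9 and 5852.4 TPM in control and 5925.3 and 5978.0 TPM in oeDAZL. The 14 constitutive core genes summed to 2605.4 and 2689.6 TPM in control and 2690.4 and 2779.5 TPM in oeDAZL, and the 17 genes of base and lid to 2376.8 and 2456.0 TPM in control and 2494.0 and 2482.2 TPM in oeDAZL. Each of the 3 sums was higher in both oeDAZL libraries, with the smallest p that the design allows (exact permutation p = 0.333 each). Per gene, base and lid reached 75.1% and 75.2% of the core in control and 76.3% and 73.5% in oeDAZL (exact permutation p = 1.0), and the lid reached 87.4% and 87.7% of the base in control and 88.3% and 87.9% in oeDAZL (exact permutation p = 0.333).

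Other genes of ubiquitin-dependent degradation were followed as a list of 32, of which 30 were tested. By limma, 1 of the 30 was higher at P of at most 0.05 and 3 were lower, against 5.02% and 15.2% of all tested genes, 0 passed by adjusted p-value, and their median difference was -0.01. The higher gene was B2M, the light chain of MHC class I, at 45.8 and 49.8 TPM in control and 70.8 and 67.6 TPM in oeDAZL (0.53, SE 0.07, limma adjusted p = 0.0896). HLA-C, a class I heavy chain, was at 94.6 and 94.7 against 85.9 and 92.1 TPM (-0.09, SE 0.06, limma adjusted p = 0.463), and HLA-B, another, at 2.25 and 2.84 against 1.9 and 1.08 TPM (-0.53, SE 0.25, limma adjusted p = 0.299). TAPBP, which helps to load peptides on class I, was at 5.64 and 6.25 against 5.15 and 3.97 TPM (-0.33, SE 0.17, limma adjusted p = 0.332). These 3 genes did not pass the threshold. Of the 6 tested genes of the immunoproteasome context, 5 had estimates below 0, while only 34.7% of all tested genes were higher in oeDAZL. The peptide transporter gene TAP1 lay between 0.0269 and 0.349 TPM, the class I activator NLRC5 between 0 and 0.207 TPM, and both were under the level for testing. IRF1, which carries interferon signals, had a difference of -0.12 (SE 0.12).

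NFE2L1, the activator named above, was at 172.4 and 176.9 TPM in control and 147.8 and 147.2 TPM in oeDAZL. It was lower in oeDAZL (-0.24, SE 0.05, limma adjusted p = 0.106). Estimates ran from -0.26 to -0.16 over the 14 settings, which all draw on the same 4 libraries. In the settings that keep every library, its limma adjusted p lay between 0.0736 and 0.322. The protease DDI2 and the glycanase NGLY1, which activate its protein, had differences of -0.02 (SE 0.08) and -0.09 (SE 0.08), and the related factor NFE2L2 had 0.07 (SE 0.12). UBA1, the main ubiquitin-activating enzyme, was at 389.3 and 374.6 TPM in control and 337.4 and 341.4 TPM in oeDAZL (-0.17, SE 0.05, limma adjusted p = 0.164). UBQLN2, a shuttle that brings substrates to the proteasome, was at 36.4 and 34.8 against 30.4 and 30.3 TPM (-0.23, SE 0.07, limma adjusted p = 0.184). Neither of these passed with median-of-ratios scaling (limma adjusted p = 0.372 for UBA1 and 0.311 for UBQLN2) or without either oeDAZL library (limma adjusted p from 0.486 to 0.645), UBQLN2 also did not without control replicate 1 (limma adjusted p = 0.344) or with quantile normalization (limma adjusted p = 0.307), and UBA1 also did not without the limma trend (limma adjusted p = 0.35). The ubiquitin genes UBB and RPS27A had differences of 0.07 (SE 0.05) and 0.02 (SE 0.05), and the unfoldase VCP had 0.11 (SE 0.05, limma adjusted p = 0.298). Of the factors that bind the proteasome, the deubiquitinase UCHL5 was at 27.8 and 31.6 against 33.1 and 35.7 TPM (0.21, SE 0.09, limma adjusted p = 0.275), and USP14 had a difference of 0.06 (SE 0.07).

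The distance between the proteasome genes and all genes was compared over the settings. The median of the members was 0.04 in 8 of the 14 settings, the reported one included, and the median of all tested genes was below that of the members in each of the 14. With median-of-ratios scaling the medians were 0.12 and 0.00, with quantile normalization 0.06 and 0.01, and without control replicate 1 they were 0.00 and -0.06. Restricting the comparison to genes with a mean of at least 20 TPM, a choice made after the values were seen because 41 of the members lie above it, gave 0.04 and -0.04, and 40.6% of all these genes were higher by sign. The smaller gap at that level is given without a test.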

How the data were processed

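RNA was measured by RNA-seq in 2 control and 2 oeDAZL libraries of H9-derived cells; the miRNA-seq samples of the series were not analysed here. The authors deposited TPM values per gene, with replicates not pooled. According to the study's methods and the submitters' processing notes, reads were checked with FastQC, trimmed with Trim Galore 0.6.4 and cutadapt 1.18, mapped to hg38 with HISAT2 2.1.0, restricted to uniquely mapped reads and quantified with StringTie 2.1.4. The annotation release is not given in the sources used here. TPM does not carry read numbers: depth is unknown for each library, counting intervals cannot be given, and precision rests on the replicate spread.

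Of 65003 entries, 45 on the Y copy of the pseudoautosomal region and 18 repeats were left out. A mean TPM of 1 or more was required. The 16687 genes that met it were fitted as log2(TPM + 1) with limma 3.58.1 in R 4.3.3 (eBayes with trend), without covariates. The procedure was first tested on simulated data with changes far larger than those of the members. That test does not cover differences of the members' size. Fold changes on the log2(TPM + 1) scale understate those of low genes. Calls use an unadjusted P of at most 0.05, without the fold change of at least 2 that the study also required in its DESeq2 calls, with Benjamini-Hochberg adjusted p-values over all tested genes beside them. Sums and ratios were compared by an exact two-sided permutation test over the 4 libraries. Gene coordinates and exon overlaps are from GENCODE release 44, matched by Ensembl identifier, and start regions from RefSeq (GRCh38.p14), matched by symbol. The 10 motifs were searched on both strands.

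The genes named are every member of the proteasome list, genes of the other lists and DAZL, and 4 genes of the ubiquitin-proteasome list are not reported here. Values of every library are given for members with P at most 0.05, the catalytic and immunoproteasome subunits and members under 1 TPM, and for further members where useful. The members, lists and motifs were chosen with earlier results of these data known. Each fit was repeated with a pseudocount of 0.1, without a filter, with a mean TPM of at least 5 or 20, with median-of-ratios scaling (factors 0.9697 to 1.047), with quantile normalization, without mitochondrial genes, without the trend, with the replicate number as a block, and without each library in turn.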

Additional observations from a re-analysis of the deposited data

How the results depend on the processing

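Against 3 proteasome genes higher in oeDAZL at P of at most 0.05, 6 were called with quantile normalization, 13 with median-of-ratios scaling, 5 without a filter, 0 without the limma trend, and 0 to 8 when a library was left out (2 without control replicate 1, 8 without control replicate 2, 1 without oeDAZL replicate 1, 0 without oeDAZL replicate 2). The 3 reported genes were among those called with each scaling. The count lower in oeDAZL was 0 except without control replicate 2, where it was 3, and over the libraries left out it ran from 0 to 3. Over all tested genes, 5.02% were higher at P of at most 0.05 as reported, 8.4% with quantile normalization and 9.95% with median-of-ratios scaling. The shares were 3.26% without a filter and 3.39% without the limma trend. Of all calls, 24.9% were higher as reported, 48.1% with quantile normalization and 52.1% with median-of-ratios scaling. The median difference of the members was 0.12 with median-of-ratios scaling, against 0.04 as reported, and 0.00 to 0.06 with a library left out. Of the other ubiquitin-proteasome genes, 1 was higher as reported, 2 without a filter, 3 with quantile normalization, 8 after median-of-ratios scaling and 1 to 5 with a library left out; 3 were lower as reported, 1 with median-of-ratios scaling and 1 to 4 with a library left out. The immunoproteasome to constitutive ratio differed by 0.0537 percentage points for all pairs and by 0.351 for PSMB10 to PSMB7 alone. Without oeDAZL replicate 1 the ratio of all pairs differed by -0.0542 and without oeDAZL replicate 2 by 0.162. No gene called as reported changed sign, but genes called with 1 library left out did: PSME3 was at -0.33 without control replicate 2 and 0.11 without control replicate 1, PSMA7 at 0.13 and -0.01, PSMG2 at 0.22 and -0.02, and PSMA4 at 0.27 without oeDAZL replicate 1 and -0.11 without oeDAZL replicate 2. The causes of these changes were not tested.

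With the replicate number as a block, 1 proteasome gene (PSMB3) was called instead of 3, with limma adjusted p-values of 0.333 for PSMD12 and 0.375 for PSMC4. The labels do not say that a number marks a shared batch. Deviations of same-numbered libraries correlated at -0.104 across genes, and whether these libraries share a batch was not tested.

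With 2 libraries per group and unknown depth, no permutation test can pass 0.05, and a difference of the size seen in most members lies within its standard error or little beyond it.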

Other observations

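Proteasome pseudogenes and antisense genes lie outside the rule and were described only. Of 32 entries for pseudogenes of the members, 19 were listed at 0 in all 4 libraries and 2 averaged at least 1 TPM, PSMC1P1 with 4.33 and PSMA6P1 with 4.26 TPM, against 57.6 TPM for PSMC1 and 214.2 TPM for PSMA6. How reads shared by a gene and its copy were counted was not tested, which leaves the levels of PSMC1 and PSMA6 uncertain.

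PSMA3-AS1, an antisense gene whose span overlaps that of PSMA3, was at 40.3 and 32.4 TPM in control and 31.8 and 31.9 TPM in oeDAZL. Its difference was -0.18 (SE 0.11, limma adjusted p = 0.417). PSMG3-AS1 was at 3.42 and 3.16 TPM in control and 2.71 and 2.26 TPM in oeDAZL (-0.30, SE 0.18, limma adjusted p = 0.398), and PSMD6-AS2 at 1.95 and 1.62 TPM in control and 1.21 and 1.18 TPM in oeDAZL (-0.34, SE 0.22, limma adjusted p = 0.43). All 3 lay lower in both oeDAZL libraries, as did 38.4% of all tested genes, and none passed the threshold. Exon bases are shared by PSMG3 and PSMG3-AS1 (60 bases) and by PSMD6 and PSMD6-AS2 (352 bases). Whether counting used the strand is not given in the sources used here. Reads from genes that overlap in this way may thus not have been told apart. PSMB8-AS1 and PSMD6-AS1 were listed at 0 in every library.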
